A study of Mus musculus with 9 samples.

Results

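The genes described here are the heat shock and J-domain chaperone genes measured in mouse leukaemia cells after knockdown of Syncrip, a member of the hnRNP proteins, which bind RNA. Members were taken by symbol: every Dnaja, Dnajb and Dnajc gene, every Hspa, Hspb, Hspd, Hspe and Hsph gene, and Hsp90aa1, Hsp90ab1, Hspbp1, Hsf1, Stip1, Ahsa1 and Hspbap1. Hspa5, Dnajb9, Dnajb11 and Dnajc3, which serve the lumen of the endoplasmic reticulum, were left out by the rule. The rule found 80 of the 38926 symbols in the count files, 8 of them pseudogenes, and 56 passed the filter on low counts and were tested. The set has been called cytosolic, but by textbook knowledge it also holds mitochondrial members (Hspa9, Hspd1, Hspe1, Dnaja3) and members of the endoplasmic reticulum (Hspa13, Dnajb12, Dnajb14, Dnajc10), and these are described apart.

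All 9 libraries came from cells of an MLL-AF9 murine leukaemia, a myeloid leukaemia driven by a fusion of the MLL gene with AF9, after tertiary transplantation. The cells were transduced separately for each library. There were 3 libraries with a first hairpin against Syncrip (KD1), 3 with a second (KD2) and 3 with a control hairpin. Knockdown libraries were collected on day 4 after transduction, and the protocol gives the same day for the control. The labels call the control a scramble hairpin and the design text calls it one against luciferase, and these sources do not settle which was used. Every group carries the MLL-AF9 fusion, and no group is without a hairpin. The labels do not say whether the cultures came from 1 leukaemia or from several, so p-values measure the spread between separately transduced cultures.

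Chaperones bind proteins that are unfolded or not yet folded. HSP70 proteins bind short hydrophobic stretches under the control of ATP, J-domain proteins bring them their substrates and switch on their ATPase, and HSP110 proteins and Hspbp1 release the nucleotide. HSP90 acts later, on near-native kinases, receptors and transcription factors, and receives many of them from HSP70 through the adaptor Stip1. In mitochondria Hspa9 and the Hspd1-Hspe1 chaperonin fold imported proteins. The transcription factor HSF1 binds arrays of GAA units, called heat shock elements, and drives the inducible members of all these classes. Leukaemia cells are known to carry many HSP90 clients.

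Total counts ran from 9559638 to 19483923 per library. Syncrip had 207 to 241 CPM (counts scaled to library size, with TMM factors) in the control libraries, 15.9 to 20.1 with KD1 and 46.3 to 63.2 with KD2, with a log2 fold change of -3.68 and -2.0 (edgeR adjusted p = 3.79e-07 and 2.19e-06). Ribosomal RNA genes took 4.77 to 8.29% of counts in the control libraries, 12.0 to 19.3% with KD1 and 6.10 to 15.8% with KD2. The leukaemia and myeloid markers Hoxa9, Meis1, Kit, Ptprc, Itgam, Spi1, Cebpa and Mpo were all detected, and with each hairpin 4 of these 8 fell and 1 rose. Hoxa9 and Meis1, transcription factors that sustain this leukaemia, fell with both hairpins: Hoxa9 was at 378 to 440 CPM in the control libraries, 262 to 279 with KD1 and 140 to 154 with KD2, and Meis1 at 70.1 to 75.2, 55.6 to 57.6 and 52.3 to 62.4 CPM. Ptprc and Cebpa fell with KD1 and Kit with KD2. Mpo, a granule enzyme of early myeloid cells, was at 14.0 to 25.0 CPM in the control libraries, 494 to 575 with KD1 and 6.01 to 12.8 with KD2, and Itgam, an integrin of mature myeloid cells, was at 167 to 189, 143 to 185 and 282 to 384 CPM. The 4 T cell, 4 B cell, 4 erythroid, 4 fibroblast and 4 testis markers summed to at most 1.65 CPM per list in any library. Of these markers only Cd3d, Col1a1 and Klf1 passed the filter. Cd3d and Col1a1 rose with KD2 by the test (log2 fold change 1.94 and 2.15), to 0.742 to 1.60 and 1.16 to 1.53 CPM. Neither changed by the test with KD1, and Klf1 passed no test. The endothelial list summed to 16.7 to 29.1 CPM in the control libraries, 5.16 to 8.40 with KD1 and 18.9 to 22.2 with KD2, most of it Pecam1, which leukocytes also express, while Cdh5 and Tek were at or near 0; Kdr was at 0.203 to 0.597 CPM in the control libraries, 0 to 0.768 with KD1 and 1.62 to 3.91 with KD2, where it rose. The part of these markers in the results below was not tested.

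Heat shock elements are the sequence feature most tied to this family, so promoters were searched for them. RefSeq promoter windows (GRCm38.p6), from 250 bases before to 50 bases after each start, were found for 57 members, 42 of them tested. The other 14 tested members were not searched: Hsf1, Hsp90aa1, Hsp90ab1, Hspa8, Hspa9, Hspa9-ps1, Hspa13, Dnajc2, Dnajc5, Dnajc11, Dnajc12, Dnajc18, Dnajc19-ps and Dnajc30. The motifs were GAANNTTC and TTCNNGAA, which each read the same on both strands and hold 2 units, and the same motifs extended by 2 bases of any kind and another unit, GAA after the first and TTC after the second. The extended forms are each other's reverse complement and contain the shorter motifs. A match with 2 units lay in the windows of 28.1% of the 57 member genes and of 17% of the 27025 genes with a window. A match with 3 units lay in 7.02% of the member genes, which are Dnajb6, Hspd1, Hspe1 and Hsph1, and in 0.662% of all genes. Hspd1 and Hspe1 are divergent neighbours whose windows share 285 bases on opposite strands. A run of 4 units stands between them, and its first base lies 89 bases before the Hspe1 start and, read on the other strand, 144 bases before the Hspd1 start. The sequences below show this run, then matches near 6 further members, among them Hspa1a and Hspa1b, which passed no test, and Dnajb6, Dnaja1 and Dnaja4, which passed tests with different hairpins or in different directions; capitals mark the GAA and TTC units, and each sequence is read 5′ to 3′ on the strand of its gene.

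Hspe1 (chr1:55088019-55088116, plus strand): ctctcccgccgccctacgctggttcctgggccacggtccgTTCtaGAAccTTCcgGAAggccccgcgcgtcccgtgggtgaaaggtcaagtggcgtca
Dnajb6 (chr5:29735812-29735897, plus strand): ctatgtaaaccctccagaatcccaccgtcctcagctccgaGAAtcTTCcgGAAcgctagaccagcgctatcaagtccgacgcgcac
Hsph1 (chr5:149636322-149636409, minus strand): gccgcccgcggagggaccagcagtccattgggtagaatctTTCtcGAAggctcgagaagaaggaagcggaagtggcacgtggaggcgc
Hspa1a (chr17:34972213-34972300, minus strand): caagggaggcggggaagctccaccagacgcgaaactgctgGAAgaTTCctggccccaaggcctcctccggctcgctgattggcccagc
Hspa1b (chr17:34959295-34959382, minus strand): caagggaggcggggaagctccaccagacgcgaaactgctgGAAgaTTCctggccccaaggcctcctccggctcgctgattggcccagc
Dnaja1 (chr4:40722304-40722391, plus strand): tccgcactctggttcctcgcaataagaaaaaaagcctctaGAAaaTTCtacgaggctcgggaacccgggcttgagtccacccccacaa
Dnaja4 (chr9:54699429-54699554, plus strand): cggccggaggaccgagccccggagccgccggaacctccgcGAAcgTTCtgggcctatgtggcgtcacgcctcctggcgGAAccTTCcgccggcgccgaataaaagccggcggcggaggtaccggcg

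The Hspa1a and Hspa1b windows were alike at 296 of 300 positions and their printed stretches did not differ. In the Hsph1 window the match with 3 units lies after the start, so the stretch above shows only the one with 2 units, 54 bases before the start. A match is a description of these letters and not a binding site.

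The chaperone genes as a group took a smaller share of the counts after knockdown. The 80 symbols together held 1.18, 1.11 and 1.19% of all counts in control libraries 1, 2 and 3. They held 0.663, 0.670 and 0.593% with KD1 and 0.784, 0.476 and 0.658% with KD2, so no knockdown library reached the lowest control library. Their summed level was 10434 ± 434 CPM in the control libraries (SD, n = 3), 6845 ± 156 with KD1 and 6614 ± 1075 with KD2. Hsp90ab1 made up 54.5% of the control sum, 44.9% of the KD1 sum and 46.7% of the KD2 sum. Without both HSP90 genes the sums were 4219 ± 44.0, 3516 ± 25.1 and 3204 ± 185 CPM, again lower in each knockdown library than in each control library. These are bulk libraries, in which fewer cells of a type and less RNA per cell cannot be told apart.

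**Figure D1:**
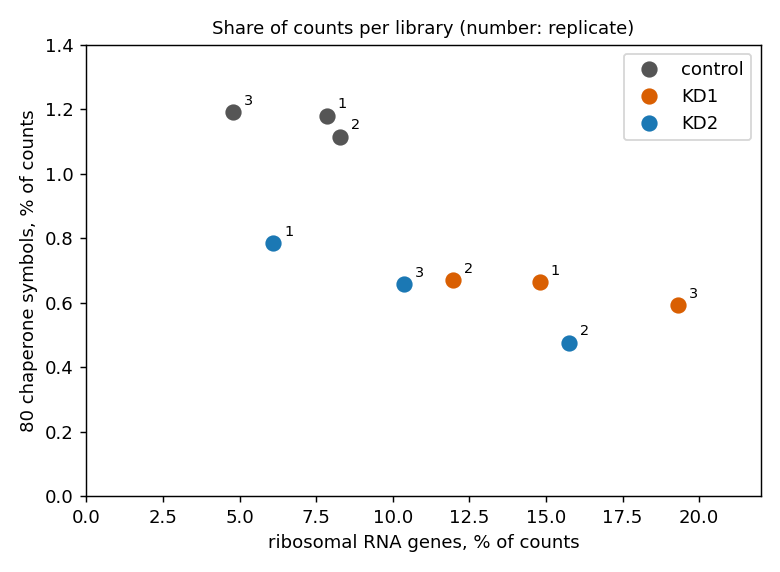
Share of each library's counts held by the 80 chaperone symbols (y axis, %) against the share held by ribosomal RNA genes (x axis, %), with 1 point per library, coloured by group and numbered by replicate. The control libraries lie between 1.11 and 1.19% and the knockdown libraries between 0.476 and 0.784%, with KD2 replicate 2 lowest and highest in ribosomal RNA within its group.

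More members fell than rose with each hairpin, while rises and falls were near even over all genes. A gene counts as changed here at an edgeR adjusted p under 0.05, adjusted over all 12663 genes tested. With KD1, 20 of the 56 tested members fell (35.7%), where 17.3% of all genes fell, and 4 rose (7.14%), where 17.4% of all genes rose; 34.7% of all genes changed in either direction. With KD2, 21 fell (37.5%), where 24.2% of all genes fell, and 7 rose (12.5%), where 24.4% of all genes rose; 48.7% of all genes changed in either direction. Among the 21 is the pseudogene Hspa9-ps1 (edgeR adjusted p = 0.0495), whose call was lost in 12 of 16 alternative fits. The median log2 fold change of the tested members was -0.12 with KD1 and -0.20 with KD2, beside 0.02 and 0.0043 over all genes. All 56 had passed the filter in the 3 control libraries. With KD1 the 20 falls became 13 without KD1 replicate 2, and the 4 rises became 2 without KD1 replicate 1 or 2 or control replicate 2 or 3.

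With both hairpins 12 members fell: Hsp90aa1, Hsp90ab1, Stip1, Hspa2, Hspa4l, Hsph1, Hspd1, Dnajc2, Dnajc10, Dnajc11, Dnajc21 and Dnajb12. They are 21.4% of the tested members, where 9.57% of all genes fell with both. The 12 became 7 without control replicate 3; without KD2 replicate 2, the library highest in ribosomal RNA in its group, 11 fell. Only Hspb11 rose with both (1.79%, where 9.24% of all genes did), and no member moved in opposite directions (2.66% of all genes did). In 16 members every knockdown library lay below every control library (28.6%, where 14.4% of all genes did), and in 2 every knockdown library lay above (3.57%, where 12.9% of all genes did). Both comparisons use the same 3 control libraries, so these joint counts describe the libraries and are no second test. Counts for the smaller role groups below are likewise descriptions, to be read against the shares of all genes given here.

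With KD1 the calls depended on whether the share of ribosomal RNA was in the fit. That share did not overlap between the KD1 libraries (12.0 to 19.3%) and the control libraries (4.77 to 8.29%). A fit with that share as a covariate can therefore not fully separate it from the KD1 hairpin. When that share entered the fit as a covariate, 4 of the 24 KD1 calls held (Hspa2, Stip1, Dnajc21 and Dnajc25), while all 24 kept their sign and 20 kept 50% or more of their log2 fold change. Over all genes that fit called 827 rises where the fit without it called 2201, and 531 falls for 2188, so the loss was not confined to the members. With KD2, whose ribosomal share overlapped that of the control libraries, 25 of 28 calls held, and Hsf1, Hspbp1 and Dnajc15 lost theirs, beside 2912 rises for 3095 and 2876 falls for 3067 over all genes.

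**Figure D2:**
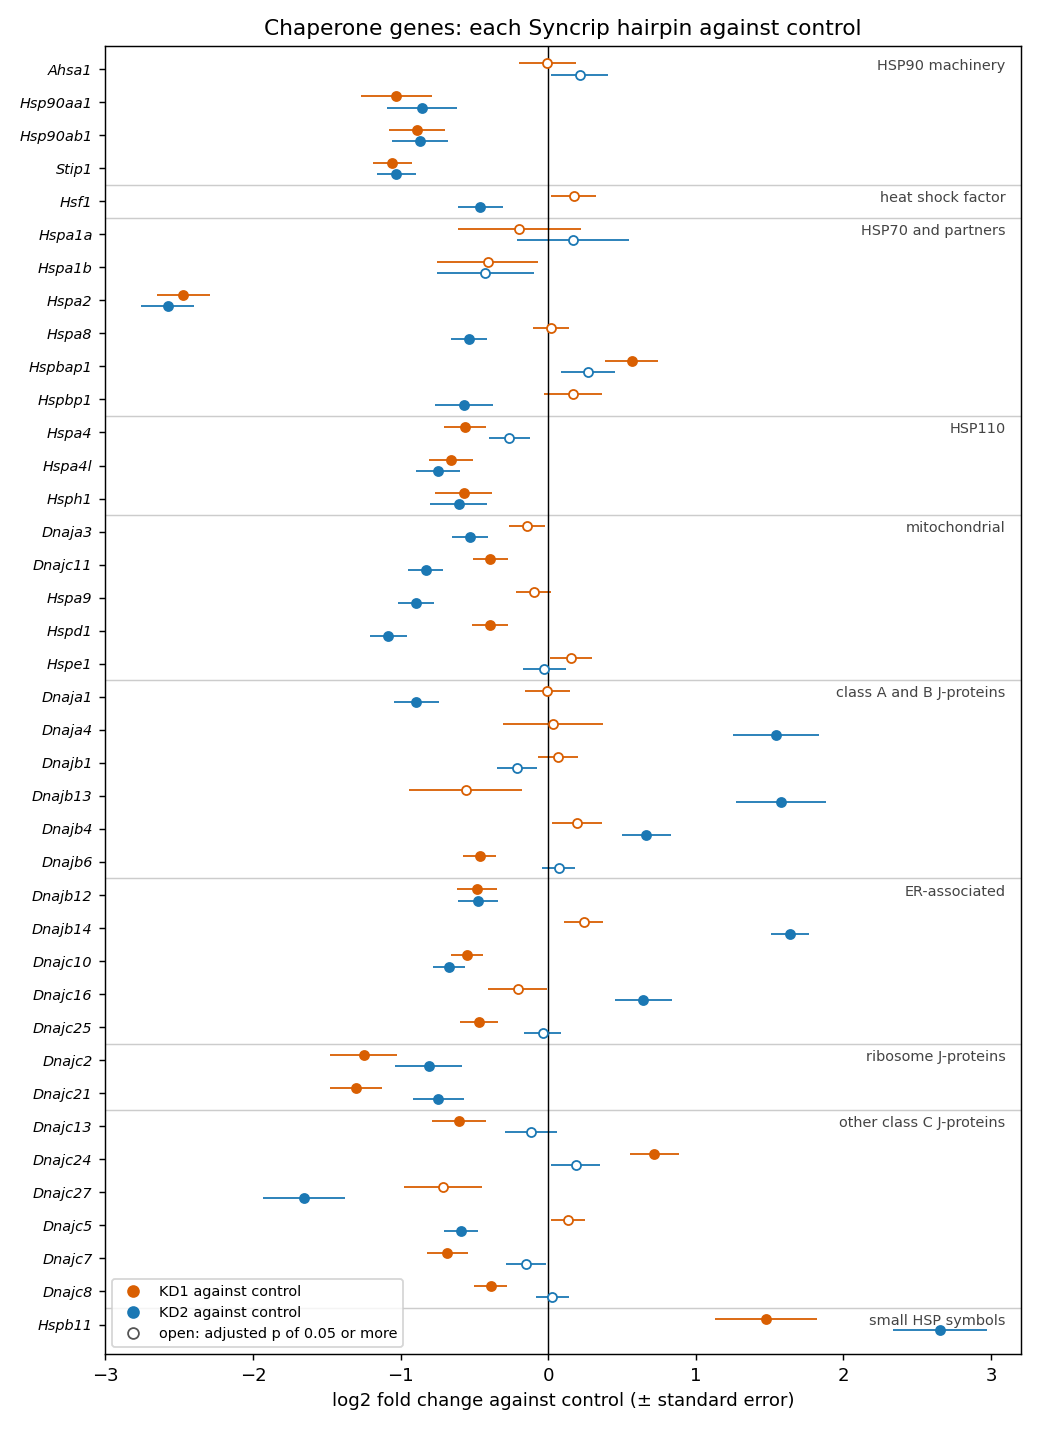
Log2 fold change against control (x axis, ± standard error of the fit) for the 39 members described with values, in orange for KD1 and blue for KD2, grouped by role. Filled points passed an adjusted p of 0.05; Hspa2 lies farthest to the left with both hairpins and Hspb11 farthest to the right.

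The HSP90 machinery fell with both hairpins, except for Ahsa1. Hsp90ab1 encodes the constitutive cytosolic HSP90 and lies at chr17:45567775-45573271 (mm10). It was at 6099, 5449 and 5524 CPM in the control libraries, 3151, 3155 and 2910 with KD1 and 3957, 2348 and 3059 with KD2. No knockdown library reached a control library. The log2 fold change was -0.89 with KD1 (SE 0.19, edgeR adjusted p = 0.00429) and -0.87 with KD2 (SE 0.19, edgeR adjusted p = 0.00267). Hsp90aa1, the stress-inducible HSP90, was at 566, 489 and 514 CPM in the control libraries, 294, 260 and 215 with KD1 and 385, 172 and 309 with KD2. All knockdown libraries again lay below the controls, and KD2 replicate 2 was the lowest of all. Its log2 fold change was -1.03 with KD1 (SE 0.24, edgeR adjusted p = 0.00667) and -0.86 with KD2 (SE 0.24, edgeR adjusted p = 0.0106). In Hsp90aa1 47.5% of the transcript stretches of 50 bases also occur in other annotated genes, mostly pseudogenes, so its level is uncertain. In Hsp90ab1 that share was 3.44%.

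Stip1, the adaptor that passes clients from HSP70 to HSP90, was at 179, 209 and 206 CPM in the control libraries, 95.8, 96.1 and 94.2 with KD1 and 115, 85.0 and 91.3 with KD2. All knockdown libraries lay below the controls, and the KD1 libraries lay inside the KD2 range with an SD of 0.994 CPM. The log2 fold change was -1.06 with KD1 (SE 0.13, edgeR adjusted p = 0.000277) and -1.03 with KD2 (SE 0.13, edgeR adjusted p = 7.6e-05). Ahsa1, which stimulates the HSP90 ATPase, was at 21.2, 22.5 and 17.9 CPM in the control libraries, 24.6, 20.6 and 16.3 with KD1 and 29.8, 18.6 and 22.9 with KD2. These ranges overlapped, and Ahsa1 passed the test in neither comparison (log2 fold change -0.0046 and 0.21, edgeR adjusted p = 0.989 and 0.379). Between the hairpins none of the 4 genes passed the test. With the ribosomal share in the fit, Hsp90ab1 had a log2 fold change of -0.50 with KD1 (edgeR adjusted p = 0.169) and -0.71 with KD2 (edgeR adjusted p = 0.00528), and Stip1 one of -0.80 (edgeR adjusted p = 0.013) and -0.91 (edgeR adjusted p = 0.000157). In the same fit Hsp90aa1 had one of -0.41 with KD1 (edgeR adjusted p = 0.333) and -0.62 with KD2 (edgeR adjusted p = 0.0209).

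The list of 22 HSP90 co-chaperones and related genes outside the members was tested in full. With KD1, 10 fell and 1 rose, where 17.3% of all genes fell and 17.4% rose. With KD2, 11 fell and 1 rose, where 24.2% of all genes fell and 24.4% rose. The median log2 fold change was -0.26 with KD1 and -0.32 with KD2. The 8 that fell with both were Cdc37l1, Fkbp4, Nudc, Ppid, Ruvbl1, Tsc1, Ttc4 and Trap1, which is itself a mitochondrial HSP90. Over all genes 9.57% fell with both hairpins. Ppid, a cyclophilin that binds HSP90 through its tetratricopeptide repeats, was at 137, 167 and 176 CPM in the control libraries, 98.0, 98.8 and 110 with KD1 and 52.6, 59.2 and 55.7 with KD2. The levels stepped down from control to KD1 to KD2 with no overlap (log2 fold change -0.64 and -1.52, edgeR adjusted p = 0.00243 and 3.97e-06). Fnip2, a folliculin partner that inhibits the HSP90 ATPase, was the 1 gene that rose with both, at 9.81 to 11.7 CPM in the control libraries, 13.2 to 19.4 with KD1 and 19.8 to 32.0 with KD2 (log2 fold change 0.58 and 1.26, edgeR adjusted p = 0.0392 and 0.000254).

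Among the cytosolic HSP70 genes, Hspa2 had the largest fall of the tested members and the constitutive Hspa8 fell with KD2 only by the test. Hspa2, an HSP70 known best from male germ cells, lies at chr12:76404176-76406938. It was at 124, 156 and 110 CPM in the control libraries, 25.8, 21 and 23.6 with KD1 and 23.0, 16.8 and 25.4 with KD2. The highest knockdown library stood far below the lowest control library. The log2 fold change was -2.47 with KD1 (SE 0.18, edgeR adjusted p = 1.42e-05) and -2.58 with KD2 (SE 0.18, edgeR adjusted p = 1.85e-06), and it was -2.47 and -2.58 with the ribosomal share in the fit. The testis markers Prm1, Prm2, Tnp1 and Acrv1 together reached at most 0.135 CPM in any library, and no stretch of 50 bases of Hspa2 occurs in another annotated gene.

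Hspa8, the constitutive HSP70 of the cytosol, was at 664, 639 and 729 CPM in the control libraries, 669, 672 and 720 with KD1 and 432, 478 and 491 with KD2. The KD1 libraries lay inside the control range and the KD2 libraries lay below it. The log2 fold change was 0.02 with KD1 (edgeR adjusted p = 0.915) and -0.54 with KD2 (SE 0.12, edgeR adjusted p = 0.00316), and the hairpins differed by 0.56 (SE 0.12, edgeR adjusted p = 0.00326). Hspa8 shares 38.6% of its stretches of 50 bases with other annotated genes.

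The heat-inducible HSP70 genes Hspa1a and Hspa1b were scarce in all libraries. Hspa1a ranged from 0.752 to 0.913 CPM in the control libraries, from 0.329 to 0.998 with KD1 and from 0.696 to 1.23 with KD2. Hspa1b ranged from 1.52 to 2.06, from 0.659 to 1.66 and from 1.10 to 1.55 CPM. The groups overlapped for both genes and neither passed the test. Their transcripts share 60.3 and 62.3% of their stretches of 50 bases, mostly with each other, so reads may have been lost or split between them.

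Hspbp1, which releases nucleotide from HSP70, was at 153, 121 and 110 CPM in the control libraries, 173, 126 and 132 with KD1 and 109, 83.6 and 65.3 with KD2. It fell with KD2 (log2 fold change -0.57, SE 0.20, edgeR adjusted p = 0.0312), with the highest KD2 library just under the lowest control library. That call was lost when KD2 replicate 2 or 3, or control replicate 1 or 2, was left out. Hspbap1, named for its binding to the small heat shock protein Hspb1, was at 7.15, 5.04 and 6.81 CPM in the control libraries and 8.90, 9.98 and 9.32 with KD1. It rose with KD1 (log2 fold change 0.57, SE 0.18, edgeR adjusted p = 0.0312) and not by the test with KD2, at 7.98, 8.35 and 6.68 CPM (log2 fold change 0.27, edgeR adjusted p = 0.24). Its KD1 call was lost when any KD1 library or control replicate 2 or 3 was left out.

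All 3 HSP110 genes fell with KD1 and 2 of them fell with KD2. Hspa4l was at 50.3, 55.7 and 53.1 CPM in the control libraries, 35.8, 30.9 and 34.3 with KD1 and 36.5, 24.4 and 33.9 with KD2. No knockdown library reached a control library (log2 fold change -0.66 and -0.75, SE 0.15 each, edgeR adjusted p = 0.00619 and 0.00157). Hsph1, the most heat-inducible of them, was at 76.6, 74.7 and 70.2 CPM in the control libraries, 47.7, 52.1 and 49.3 with KD1 and 66.0, 33.7 and 45.5 with KD2. The KD2 libraries spread widely but stayed below the controls (log2 fold change -0.57 and -0.61, SE 0.19 each, edgeR adjusted p = 0.0385 and 0.0209). The KD1 call of Hsph1 was lost without any one KD1 or control library or without KD2 replicate 3. Its KD2 call was lost without KD2 replicate 2 or 3 or control replicate 1 or 2. Hspa4 was at 350, 331 and 310 CPM in the control libraries, 228, 219 and 225 with KD1 and 297, 218 and 310 with KD2. It fell with KD1 (log2 fold change -0.56, SE 0.14, edgeR adjusted p = 0.01), while the KD2 libraries reached into the control range (log2 fold change -0.26, edgeR adjusted p = 0.142).

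**Figure D3:**
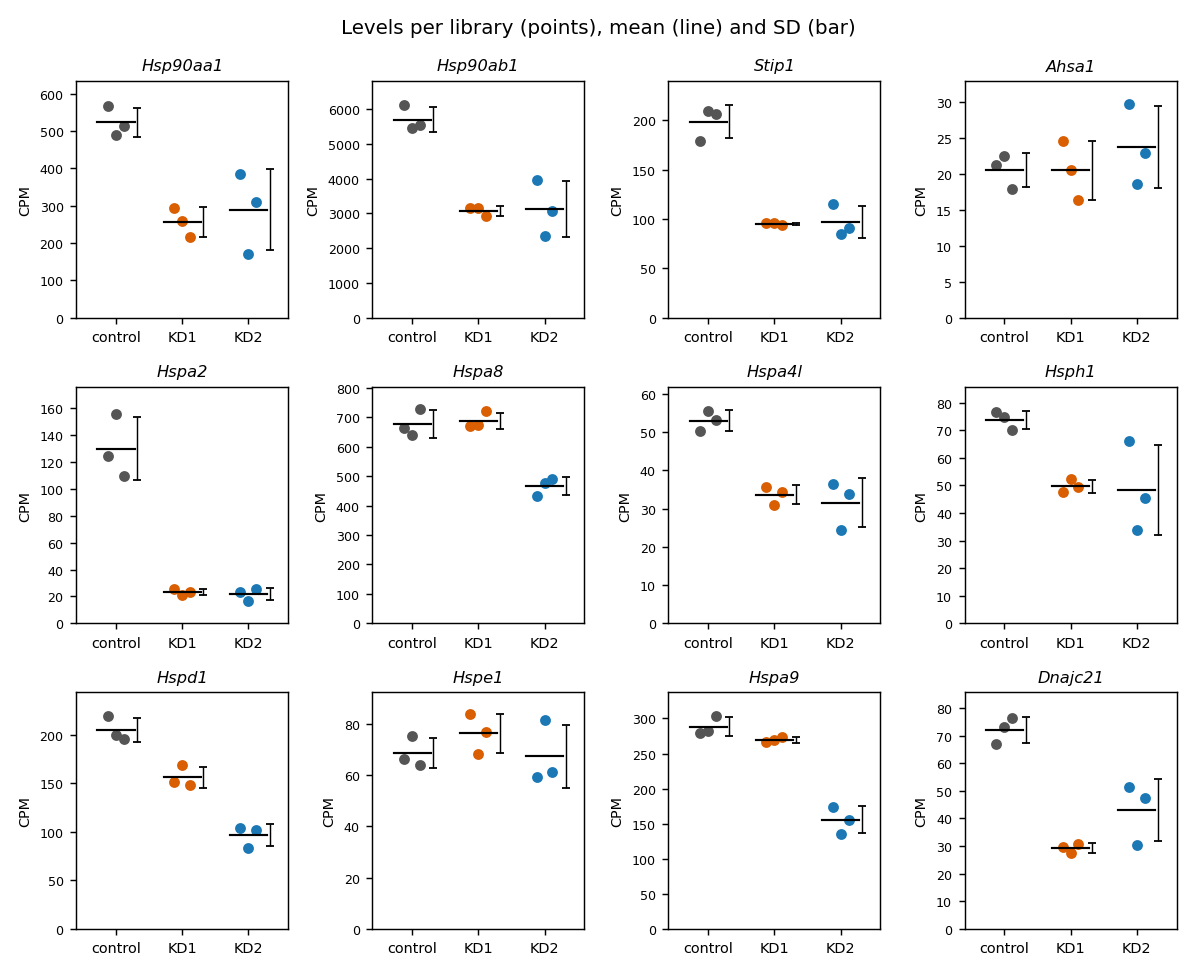
Level of 12 chaperone genes in each library (y axis, CPM from 0; points are libraries, the line is the mean and the bar the SD of 3). Hspa2 falls from 110 to 156 CPM in the control libraries to at most 25.8 after knockdown, Hspa8 and Hspa9 fall with KD2 and not by the test with KD1, and the Hspe1 groups overlap.

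Of 14 HSP70 co-chaperones outside the members, 5 were higher with KD1 than with KD2 and 0 were lower, where 19.7% of all genes were higher and 21.3% lower. Against control, 3 rose and 1 fell with KD1, where 17.4% of all genes rose and 17.3% fell. With KD2, 1 rose and 5 fell, where 24.4% of all genes rose and 24.2% fell. Bag2 and Bag4, BAG-domain partners of HSP70, passed the test in opposite directions. Bag2 was at 18.8, 16.5 and 17.7 CPM in the control libraries, 25.1, 29.2 and 25.8 with KD1 and 10.4, 8.51 and 7.15 with KD2. Bag4 was at 30.5, 26.8 and 25.5 CPM in the control libraries, 36.6, 33.9 and 38.1 with KD1 and 17.7, 17.0 and 14.3 with KD2. For both genes KD1 lay above the control libraries and KD2 below them, without overlap. The difference between the hairpins was 1.62 for Bag2 and 1.15 for Bag4 on the log2 scale (edgeR adjusted p = 1.41e-05 and 5.08e-05).

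Hsf1, the master transcription factor of the heat shock response, was at 12.2, 13.0 and 14.4 CPM in the control libraries, 13.2, 15.1 and 16.3 with KD1 and 10.1, 10.6 and 8.16 with KD2. It fell with KD2 (log2 fold change -0.46, SE 0.15, edgeR adjusted p = 0.027) and not by the test with KD1 (log2 fold change 0.17, edgeR adjusted p = 0.4), and the hairpins differed by 0.63 (SE 0.16, edgeR adjusted p = 0.00695). The KD2 call was lost without KD2 replicate 3 or control replicate 2 or 3. A list of 20 genes of the heat shock response, of which 14 are members, was read beside it, and 19 were tested. It also holds Hsp90ab1 and Hspa8, described above as constitutive. With KD1, 7 of the 19 fell and 1 rose, and with KD2, 11 fell and 1 rose. Over all genes 17.3% fell with KD1, 24.2% with KD2 and 9.57% with both. Most of the list is thus already counted among the members. Of the 6 genes that are not members, 1 fell and 1 rose with KD1, and 3 fell and 1 rose with KD2. Over the 19 tested genes of the list the median log2 fold change was -0.20 with KD1 and -0.54 with KD2. Over the 6 that are not members it was -0.19 and -0.34. The 7 genes of the list that fell with both were Fkbp4 and the members Hsp90aa1, Hsp90ab1, Hspa4l, Hspd1, Hsph1 and Stip1. The gene that rose was Hmox1, which breaks down haem and also responds to oxidants, at 16.7, 30.8 and 37.8 CPM in the control libraries, 40.6, 94.4 and 221 with KD1 and 58.2, 111 and 96.9 with KD2. Its KD1 libraries spread widely and the lowest lay just above the highest control library (log2 fold change 2.06 and 1.64, SE 0.50 and 0.49, edgeR adjusted p = 0.00832 and 0.0163). Hspb1, a small heat shock protein and a strongly inducible gene, had 2 counts over all 9 libraries, but 48.8% of its stretches of 50 bases also occur in the pseudogene Hsp25-ps1, so reads may have been lost.

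Of 8 tested mitochondrial members, 4 fell and 1 rose with KD2, and 2 fell with KD1. Between the hairpins 4 of them were higher with KD1 and none with KD2. Hspd1, the chaperonin HSP60, lies at chr1:55077835-55088243 on the minus strand. It was at 219, 199 and 196 CPM in the control libraries, 151, 169 and 148 with KD1 and 104, 83.8 and 102 with KD2. The 3 groups formed separate steps. The log2 fold change was -0.39 with KD1 (SE 0.12, edgeR adjusted p = 0.0277) and -1.08 with KD2 (SE 0.12, edgeR adjusted p = 3.4e-05), and the hairpins differed by 0.69 (SE 0.12, edgeR adjusted p = 0.000957). The KD1 call was lost without KD1 replicate 1 or 3 or without any one control library.

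Hspe1, the lid of the same chaperonin, starts on the other strand at chr1:55088132-55091307 and shares the GAA and TTC run printed above. It was at 66.3, 75.0 and 64.0 CPM in the control libraries, 83.6, 68.3 and 76.9 with KD1 and 59.2, 81.4 and 61.1 with KD2. Its groups overlapped and it passed the test in neither comparison (log2 fold change 0.16 and -0.03, edgeR adjusted p = 0.433 and 0.893). Whether Hspd1 and Hspe1 differ in response was not tested. Hspd1 shares 39.7% and Hspe1 18.4% of their stretches of 50 bases with other annotated genes, mainly pseudogenes, and the exons of the pair overlap by 112 bases.

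Hspa9, the mitochondrial HSP70, was at 279, 282 and 304 CPM in the control libraries, 266, 269 and 274 with KD1 and 174, 136 and 156 with KD2. KD1 lay just under the control range and KD2 far below it. The log2 fold change was -0.10 with KD1 (edgeR adjusted p = 0.555) and -0.89 with KD2 (SE 0.12, edgeR adjusted p = 0.000107), and the hairpins differed by 0.79 (SE 0.12, edgeR adjusted p = 0.000329). Dnaja3, the J-protein partner of Hspa9, was at 35.1, 36.8 and 35.6 CPM in the control libraries, 32.2, 32.6 and 32.8 with KD1 and 21.5, 27.8 and 25.2 with KD2. It fell with KD2 (log2 fold change -0.53, SE 0.12, edgeR adjusted p = 0.00343). Dnajc11, which is tied to the contact sites of the mitochondrial membranes, was at 38.1, 44.2 and 41.4 CPM in the control libraries, 31.0, 32.6 and 30.5 with KD1 and 22.2, 21.9 and 25.4 with KD2. Its levels also stepped down without overlap (log2 fold change -0.39 and -0.83, SE 0.12 each, edgeR adjusted p = 0.0227 and 0.00015). The KD1 call of Dnajc11 was lost without any one KD1 library or control replicate 2 or 3. The mitochondrial member that rose with KD2 was Dnajc15, and its call was lost without KD2 replicate 2 or control replicate 1.

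Class A and B J-proteins, the general partners of cytosolic HSP70, numbered 8 among the tested genes, of which 1 fell with KD1, and 3 rose and 1 fell with KD2. With KD2 that is near the 48.7% of all genes that changed. Dnajb1, the main heat-inducible one, was at 95.2, 83.9 and 89.6 CPM in the control libraries, 101, 97.5 and 82.7 with KD1 and 90.6, 66.7 and 75.2 with KD2. The groups overlapped and no test was passed (log2 fold change 0.07 and -0.21, edgeR adjusted p = 0.737 and 0.226). Dnajb6, which keeps aggregation-prone proteins soluble, was at 89.4, 85.2 and 91.4 CPM in the control libraries, 67.3, 61.3 and 64.2 with KD1 and 103, 89.2 and 87.2 with KD2. Only KD1 lay below the controls (log2 fold change -0.46, SE 0.11, edgeR adjusted p = 0.00782), and the hairpins differed by -0.54 (SE 0.11, edgeR adjusted p = 0.00258). Dnaja1, a farnesylated partner of Hspa8, showed the reverse order, at 43.5, 38.0 and 39.0 CPM in the control libraries, 43.0, 39.6 and 37.5 with KD1 and 27.1, 17.9 and 19.9 with KD2. It fell with KD2 (log2 fold change -0.89, SE 0.15, edgeR adjusted p = 0.0006) and differed between the hairpins by 0.89 (SE 0.16, edgeR adjusted p = 0.00089).

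The class A and B genes that rose with KD2 were Dnaja4, Dnajb4 and Dnajb13. Dnaja4, a close relative of Dnaja1, was scarce, at 0.913, 0.862 and 0.928 CPM in the control libraries, 0.549, 1.23 and 0.923 with KD1 and 2.58, 3.02 and 2.36 with KD2 (log2 fold change 1.54 with KD2, SE 0.29, edgeR adjusted p = 0.00105). Its exons overlap those of Wdr61 on the opposite strand by 1581 bases, and the labels do not state whether counting used strand, so its reads may belong to either. Dnajb13, a J-protein of sperm tails and cilia, was at 0.760, 0.928 and 1.02 CPM in the control libraries, 0.769, 0.538 and 0.554 with KD1 and 2.33, 3.71 and 2.16 with KD2 (log2 fold change 1.58 with KD2, SE 0.30, edgeR adjusted p = 0.00121), with 305 bases of exon shared with Ucp2 on the opposite strand. Dnajb4 was at 25.1, 21.1 and 16.8 CPM in the control libraries, 21.1, 22.4 and 28.4 with KD1 and 30.2, 34.0 and 35.6 with KD2. Each of the 3 genes had all KD2 libraries above all control and KD1 libraries. Dnajb4 had a log2 fold change of 0.67 with KD2 (SE 0.17, edgeR adjusted p = 0.006). Its difference between the hairpins of -0.47 (SE 0.17, edgeR adjusted p = 0.0412) was lost without KD1 replicate 1 or 2, KD2 replicate 2 or 3, or control replicate 2.

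Of 9 tested members of the endoplasmic reticulum membrane and lumen, 5 fell and 1 rose with KD1, and 2 fell and 2 rose with KD2. Dnajc10, which reduces disulfide bonds of proteins bound for degradation, was at 138, 147 and 135 CPM in the control libraries, 93.3, 98.2 and 96.0 with KD1 and 95.9, 84.6 and 83.0 with KD2. Both knockdown groups lay below the controls (log2 fold change -0.55 and -0.67, SE 0.11 each, edgeR adjusted p = 0.00283 and 0.000353). Dnajb12 and Dnajb14 are related membrane-anchored J-proteins that recruit Hspa8 to the cytosolic face of this membrane. Dnajb12 was at 23.3, 28.0 and 26.2 CPM in the control libraries, 19.1, 18.7 and 17.6 with KD1 and 18.8, 15.9 and 21 with KD2, and it fell with both (log2 fold change -0.48 each, edgeR adjusted p = 0.0182 and 0.0124). Dnajb14 was at 18.6, 16.7 and 20.0 CPM in the control libraries, 20.6, 23.1 and 21.6 with KD1 and 52.2, 54.8 and 65.5 with KD2. Dnajb14 thus rose 3.11-fold with KD2 (log2 fold change 1.64, SE 0.13, edgeR adjusted p = 3.39e-06) and not by the test with KD1 (log2 fold change 0.24, edgeR adjusted p = 0.18). The Dnajb12 call was lost without KD1 replicate 2 or 3 or control replicate 2 or 3 with KD1, and without control replicate 2 with KD2.

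Dnajc16 and Dnajc25 differed between the hairpins as well. Dnajc16, a transmembrane J-protein, was at 23.8, 17.9 and 20.6 CPM in the control libraries, 15.3, 21.6 and 17.1 with KD1 and 38.3, 23.7 and 35.5 with KD2. It rose with KD2 although KD2 replicate 2 lay inside the control range (log2 fold change 0.64, SE 0.19, edgeR adjusted p = 0.016), a call that was lost without KD2 replicate 3 or control replicate 2. Dnajc25 was at 46.0, 43.5 and 39.7 CPM in the control libraries, 31.0, 28.3 and 34.2 with KD1 and 38.4, 40.7 and 46.9 with KD2. It fell with KD1 (log2 fold change -0.47, SE 0.13, edgeR adjusted p = 0.0155), a call that was lost without KD1 replicate 2, and its exons overlap those of Gm20503 on the same strand by 348 bases.

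Both J-proteins that work with ribosomes fell with both hairpins. Dnajc2 forms the ribosome-associated complex with Hspa14 at the exit of the nascent chain. It was at 164, 163 and 204 CPM in the control libraries, 79.9, 75.6 and 67.7 with KD1 and 125, 60.1 and 118 with KD2. All knockdown libraries lay below the controls (log2 fold change -1.25 and -0.81, SE 0.23 and 0.22, edgeR adjusted p = 0.00182 and 0.0105). Dnajc21 takes part in the late maturation of the large ribosomal subunit, and was at 66.9, 73.0 and 76.4 CPM in the control libraries, 29.8, 27.4 and 30.7 with KD1 and 51.5, 30.2 and 47.3 with KD2. KD2 replicate 2 lay at the level of KD1 and the other KD2 libraries lay between KD1 and the controls (log2 fold change -1.30 and -0.74, SE 0.18 and 0.17, edgeR adjusted p = 0.000425 and 0.00375). The KD2 call of Dnajc2 was lost without control replicate 3. With the ribosomal RNA share in the fit Dnajc2 had a log2 fold change of -0.58 with KD1 (edgeR adjusted p = 0.125), and Dnajc21 one of -0.92 (edgeR adjusted p = 0.0239).

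Among 10 tested J-proteins of other kinds, 1 rose and 3 fell with KD1, and 2 fell with KD2. Dnajc7, whose tetratricopeptide repeats bind both HSP70 and HSP90, was at 59.1, 67.6 and 72.1 CPM in the control libraries, 41.3, 38.6 and 43.9 with KD1 and 64.1, 49.7 and 65.2 with KD2. Dnajc8, found with the spliceosome, was at 246, 230 and 218 CPM in the control libraries, 169, 176 and 186 with KD1 and 231, 225 and 253 with KD2. Both were lowest in the KD1 libraries and fell with KD1 (log2 fold change -0.68 and -0.39, edgeR adjusted p = 0.00311 and 0.0187). The Dnajc8 call with KD1 was lost without KD1 replicate 1 or 2 or control replicate 1. Dnajc13, which works on endosomes, was at 58.9, 53.4 and 54.0 CPM in the control libraries, 34.8, 36.9 and 37.6 with KD1 and 59.4, 34.6 and 59.4 with KD2, so KD2 replicate 2 stood with the KD1 libraries. Its fall with KD1 (log2 fold change -0.60, SE 0.18, edgeR adjusted p = 0.0229) was lost when any one KD1 or control library was left out.

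Dnajc5, a palmitoylated J-protein of secretory vesicles, had the opposite order, at 156, 150 and 155 CPM in the control libraries, 174, 169 and 164 with KD1 and 116, 91.3 and 98.4 with KD2. It fell with KD2 (log2 fold change -0.59, SE 0.12, edgeR adjusted p = 0.00141) and differed between the hairpins by 0.73 (SE 0.12, edgeR adjusted p = 0.000495). Dnajc27, a small GTPase fused to a J-domain, was at 5.88, 5.70 and 8.93 CPM in the control libraries, 3.62, 4.22 and 4.71 with KD1 and 2.64, 2.47 and 1.42 with KD2. It fell with KD2 (log2 fold change -1.65, SE 0.28, edgeR adjusted p = 0.000451), and the KD1 libraries lay between without passing the test (log2 fold change -0.71, edgeR adjusted p = 0.0556). Dnajc24, which acts in the synthesis of diphthamide on elongation factor EEF2, was at 8.42, 10.8 and 8.13 CPM in the control libraries, 15.5, 13.7 and 15.7 with KD1 and 9.63, 12.1 and 9.38 with KD2. It rose with KD1 (log2 fold change 0.72, SE 0.17, edgeR adjusted p = 0.00668).

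**Figure D4:**
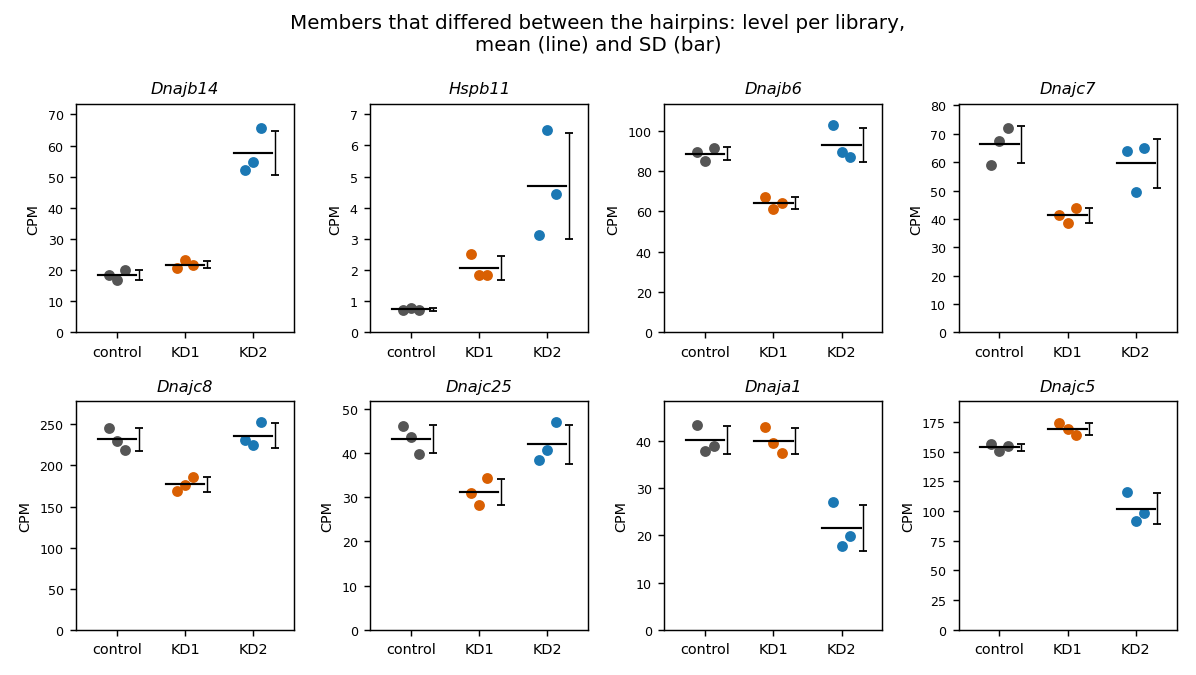
Level of 8 members that passed the test between the hairpins, in each library (y axis, CPM from 0; points are libraries, the line is the mean and the bar the SD of 3). Dnajb14 and Hspb11 are highest with KD2, Dnajb6, Dnajc7, Dnajc8 and Dnajc25 are lowest with KD1, and Dnaja1 and Dnajc5 are lowest with KD2.

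Of 8 Hspb symbols, only Hspb6 and Hspb11 passed the filter. Hspb6, a small heat shock protein known from muscle, was at 5.10 to 9.20 CPM over all libraries and passed no test. Hspb11 belongs to the intraflagellar transport machinery rather than to the stress-inducible small chaperones, and was at 0.710, 0.796 and 0.707 CPM in the control libraries, 2.53, 1.84 and 1.85 with KD1 and 3.13, 6.50 and 4.45 with KD2. Its levels rose in steps without overlap (log2 fold change 1.47 and 2.65, SE 0.35 and 0.32, edgeR adjusted p = 0.0071 and 4.84e-05). The hairpins differed by -1.18 (SE 0.30, edgeR adjusted p = 0.00807).

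Between the hairpins, 11 members were higher with KD1 (19.6%, where 19.7% of all genes were) and 12 were lower (21.4%, where 21.3% of all genes were), shares near those of all genes, of which 41% differed between the hairpins in either direction. Higher with KD1 were Dnaja1, Dnaja3, Dnajc11, Dnajc24, Dnajc27, Dnajc5, Hsf1, Hspa8, Hspa9, Hspbp1 and Hspd1. Lower with KD1 were Dnaja4, Dnajb4, Dnajb6, Dnajb13, Dnajb14, Dnajc7, Dnajc8, Dnajc13, Dnajc16, Dnajc21, Dnajc25 and Hspb11. Of the 23 differences, 14 held whichever library was left out and 19 held with the ribosomal RNA share in the fit. Those of Dnaja3, Dnajb4, Dnajc11, Dnajc13, Dnajc21, Dnajc24, Dnajc25, Dnajc27 and Hspbp1 were lost without at least 1 library. With the ribosomal RNA share in the fit those of Dnaja3, Dnajc13, Dnajc21 and Dnajc24 were lost. The Dnajc13 difference (edgeR adjusted p = 0.0481) was lost in 8 of the fits that left a library out. The cytosolic chaperonin TRiC, which folds actin and tubulin, is no member. Of its 8 subunit genes, 1 rose with KD1 and 4 fell with KD2, and between the hairpins 4 were higher with KD1 and 0 were lower. Over all genes 17.4% rose with KD1 and 24.2% fell with KD2. Tcp1 ranged from 235 to 281 CPM in the control libraries, from 259 to 275 with KD1 and from 115 to 124 with KD2 (log2 fold change -1.15 with KD2, edgeR adjusted p = 1.34e-05); it was chosen here after its values were seen. Of 5 tested genes of prefoldin, which hands proteins to TRiC, none passed the test with KD1 and 1 fell with KD2.

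No comparison was passed by 17 tested members, among them the general J-proteins Dnaja2 and Dnajb5, the HSP70 relatives Hspa13 and Hspa14, and Dnajc9, a histone chaperone. A p over the threshold does not show that their levels were equal. The 24 members under the filter had at most 19 counts in any library. Of these, 7 had no count at all (Dnajb7, Dnajb8, Dnajc5b, Dnajc5g, Hspb2, Hspb3 and Hspb8). A count of 0 allows up to 3 counts, or 0.132 to 0.329 CPM depending on the library, for counting error only. The other 17 included the HSP70 relatives Hspa1l, Hspa12a and Hspa12b, Dnajb2, and 6 pseudogenes.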

How the data were processed

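RNA from 9 separately transduced cultures (3 per group) was reverse transcribed with oligo-dT, and the second strand was primed with random decamers, per the labels' protocols. The authors deposited raw counts per gene; STAR 2.3.0e, HTSeq 0.6.0 and mm10 are named in the submitters' processing notes. The labels do not state whether counting used strand. The 39179 entries per file were summed by symbol to 38926 (429 entries shared 176 symbols), and no entry lacked a gene name. Genes were filtered with edgeR's filterByExpr, which left 12663 genes and removed 0.0908% of counts, scaled by TMM, and tested with edgeR 4.0.16 (quasi-likelihood, group only, all 9 libraries, Benjamini-Hochberg over all genes) in R 4.3.3. The fit was also run on simulated counts, with the same spread for every gene and no shift in ribosomal RNA share. That run therefore does not bear on the calls given here. Total counts of 9559638 to 19483923 and 3 libraries per group set the precision.

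Members and gene lists were chosen with earlier results of these data known. Members described with values were set by rule: 19 core chaperone genes whatever their values, members called with both hairpins, members called between the hairpins, and, per other list, up to 2 genes with the largest mean change among those called with both. Ribosomal RNA share is the share of counts in Gm26924, mt-Rnr1 and mt-Rnr2. Promoters came from RefSeq tables (GRCm38.p6); gene positions, exon overlaps and shared stretches of 50 bases came from GENCODE M21. No protein comparison was made. Alternatives were another scaling, total counts, no filter, DESeq2 1.42.0, the 2 compared groups alone, a replicate block, the ribosomal covariate and leaving out each library.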

Additional observations from a re-analysis of the deposited data

How the results depend on the processing

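Among 1872 alternative values for 117 gene results, 1740 kept their side of the threshold, 117 lost a call and 15 gained one. No called result changed direction, and no call was gained in the opposite direction. Results that passed no test could change sign. With KD1, Hspe1 had a log2 fold change of 0.16, and of -0.17 with the ribosomal covariate. KD1 against control depended most on the settings. The 4 members higher with KD1 became 2 with total counts and 2 with no filter, and 2 to 5 when a library was left out. With the ribosomal RNA covariate all 4 lost their call. The 1 member higher in that fit was another, Dnajb5 (log2 fold change 1.47, edgeR adjusted p = 0.0358). The 20 lower with KD1 became 4 with the covariate and 13 to 21 with a library left out. The 1 higher with both hairpins became 2 when only the compared groups were fitted and 0 with the covariate (1 to 2 with a library left out), and the 12 lower with both became 3 with the covariate and 7 to 13 with a library left out, 7 without control replicate 3. With a library left out, KD2 gave 6 to 7 higher and 16 to 22 lower, and KD1 against KD2 gave 8 to 11 higher and 8 to 15 lower. The cause of these changes was not tested. Total-count scaling moved the median of all genes to -0.23 with KD1 and -0.21 with KD2. With the replicate number as a block, KD1 gave 4 higher and 20 lower, KD2 7 and 22, KD1 against KD2 12 and 13, and both hairpins 1 and 13. Whether the numbers pair the libraries is not settled. Of 9 same-number pairs, 6 had a correlation of deviations over 0.1, in a range of -0.13 to 0.34. Pairs with different numbers ranged from -0.42 to 0.29. Syncrip fell by 3.60 to 3.77 on the log2 scale with KD1 and by 1.87 to 2.07 with KD2 over the libraries left out. Depth limits the scarce members most (Hspa1a, Hspa1b, Dnaja4, Dnajb13, Hspb11).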
